A study of Homo sapiens with 6 samples.

Results

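Collagen chains are the polypeptides that wind into the triple helices of collagen molecules, the main structural proteins of the extracellular matrix. To determine which collagen chains H660 cells transcribe, and which of them differed after MUC1 silencing, every gene symbol in the deposited count table that consisted of COL, a number, A and a number was taken, except COL17A1. This gave 43 chains of the 28008 gene symbols, of which 11 are fibrillar, 8 belong to basement membranes and 24 are other collagens. H660 cells (NCI-H660) are a line of neuroendocrine prostate cancer (NEPC), a form that has lost androgen receptor signaling and expresses neuronal genes. All cells carried an shRNA against MUC1 in the tetracycline-inducible vector pLKO-tet-puro and had been selected in puromycin. The DOX-negative group (n = 3) received 0.1% DMSO as the vehicle and the DOX-positive group (n = 3) received doxycycline (DOX) at 500 ng/ml for 7 days, which switches on the hairpin. Cells of both groups were cultured in triplicate in RPMI medium with serum. Only 1 hairpin sequence was used, and these 6 libraries include no cells with a control hairpin, so effects of MUC1 silencing and of DOX itself cannot be told apart. Whether the transduced cells were a pool or a clone was not given in the sources used here.

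Each collagen chain is made as a precursor in the endoplasmic reticulum, where prolines and lysines are hydroxylated and partner chains wind into a triple helix. Fibrillar collagens such as type I are then trimmed by extracellular proteinases, line up into fibrils and are cross-linked. Type IV collagens instead form a sheet-like network in basement membranes, FACITs (fibril-associated collagens with interrupted triple helices) coat fibrils, and other types form beaded filaments, anchoring fibrils or transmembrane proteins. In prostate tissue the fibrillar collagens are mostly products of stromal fibroblasts, whereas epithelial cells contribute to the basement membrane.

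Total counts per library ranged from 47620696 to 74061121. The targeted gene, MUC1, was 88.2, 90.2 and 79.6 normalized CPM (counts relative to the library's scaled total) in DOX-negative cells and 36.7, 37.2 and 29.9 in DOX-positive cells, a fall of 1.32 on the log2 scale (SE 0.096, adjusted p = 0.00017). Of the 8 neuroendocrine markers listed, all were counted in every library, and their summed level was 1646 to 1856 CPM without DOX and 1374 to 1661 CPM with DOX, with NCAM1 and INSM1 lower. Fibroblast markers other than collagens were low. Of 9 listed, PDGFRB, DCN, FAP and THY1 had fewer than 3 counts in every library, 4 were tested, and 1 (LUM) was called higher. Their summed level was 22.8 to 25.3 CPM without DOX and 26.2 to 30.9 CPM with DOX, most of it FBN1. Of 5 endothelial markers, 3 were tested, and VWF and CDH5 were called higher. KDR went the other way, with a change of -0.74 (SE 0.49, adjusted p = 0.44), and was not called. PECAM1 was too low to be tested, at a mean of 0.072 CPM without DOX and 0.042 CPM with DOX. TEK had fewer than 3 counts in every library. The summed level of the 5 was 4.19 to 5.45 CPM without DOX and 7.20 to 8.73 CPM with DOX. Of 3 blood markers, PTPRC and HBB had fewer than 3 counts in every library and CD68 was called higher, with a summed level of 1.08 to 1.16 CPM without DOX and 1.83 to 1.98 CPM with DOX. Over all genes tested, 2.91% were called higher and 1.96% lower at an adjusted p under 0.05. The part of these marker shifts in the collagen values was not tested.

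Most collagen chains were low in these cells, and the most abundant were chains that do not form fibrils. Levels of different chains were compared in TPM, a measure of abundance corrected for gene length. Of the 43 chains, 4 had a mean of at least 5 TPM, 11 had at least 1 TPM, 20 had at least 0.1 TPM, and 23 had less than 0.1 TPM. For comparison, the median over the 21241 genes with any signal was 1.51 TPM. The 4 chains with the highest mean all lay above that median. They were COL18A1 at 13.02 TPM, the FACIT chain COL21A1 at 10.5 TPM, the beaded filament chain COL6A1 at 9.65 TPM and the type IV chain COL4A2 at 6.54 TPM. The most abundant fibrillar chain was COL1A2, at 1.48 TPM. The fibrillar chains together held between 5.79% and 6.69% of all collagen TPM in each library. These level counts and shares use the deposited TPM, in which COL11A2, at 0.041 TPM, was low by a factor of about 8.76. In each library 5 structured RNAs (RN7SK, SNORD3A, RN7SL2, RN7SL1 and RPPH1) held 71.6% to 79.5% of all TPM, which lowers the TPM of all other genes. Single genes were therefore compared between groups in counts or normalized CPM. TPM was used for shares of collagen TPM and ratios of partner chains, formed within each library, and for some alternatives.

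**Figure D1:**
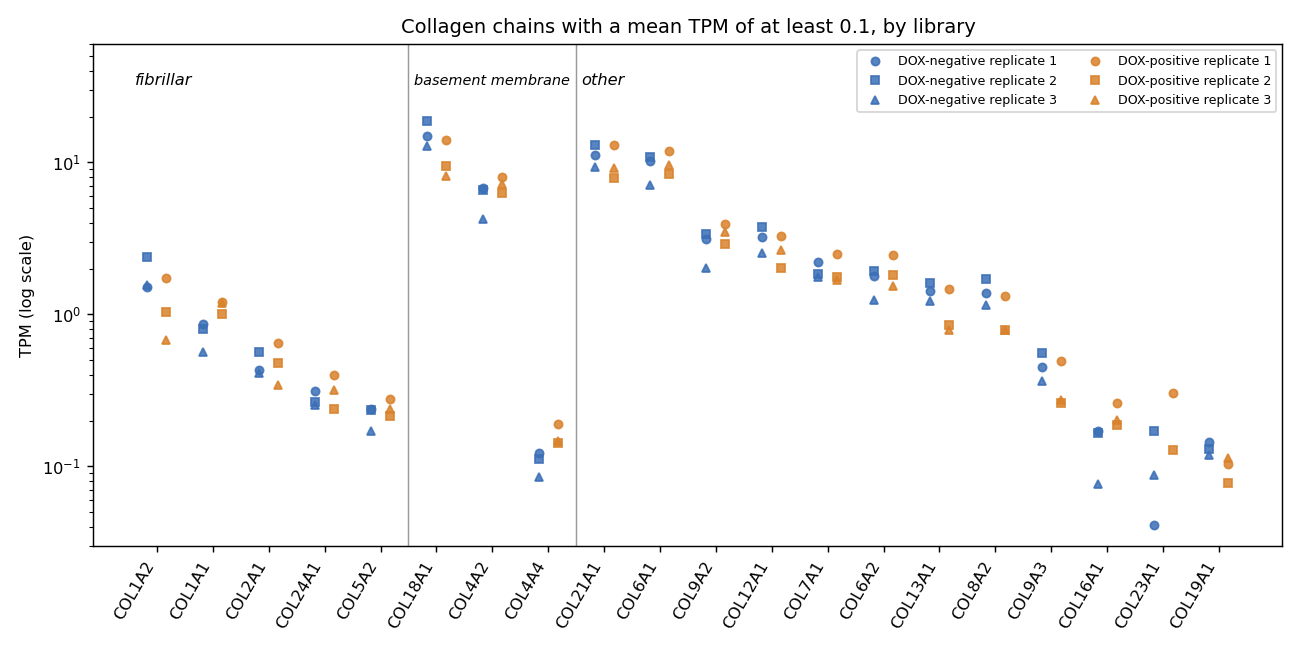
Deposited TPM on a log scale for the 20 collagen chains with a mean of at least 0.1 TPM, grouped as fibrillar, basement membrane and other and ordered by mean within each group. Each point is a library, with DOX-negative libraries in blue and DOX-positive libraries in orange, and COL18A1, COL21A1, COL6A1 and COL4A2 lie above the rest, while DOX-positive replicate 3 had a COL23A1 value of 0 and is not drawn there.

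Counts of 28 of the 43 chains were high enough to be tested. Of these, 4 were called at an adjusted p under 0.05 (14.3%), against 4.87% of all 17026 genes tested. COL1A1 and COL4A4 were higher in DOX-positive cells, and COL18A1 and COL8A2 were lower. Thus 2 of the calls were in each direction, where 2.91% of all tested genes were called higher and 1.96% lower. In such bulk RNA, a change in the number of cells that express a chain and a change in RNA per cell cannot be told apart. An unadjusted p under 0.05 was found for 15 of the 28 chains and for 21.1% of all genes tested. The groups did not overlap for 14 of the 28 chains (50%), 6 of them higher and 8 lower with DOX, whereas this held for 28.1% of all genes tested, 14.8% higher and 13.3% lower. Fitted changes were above 0 for 17 chains and below 0 for 11, with a median log2 fold change of 0.13 beside a median of 0.00034 over all tested genes. The changes ran from -0.71 for COL1A2 to 0.82 for COL4A1, so no tested chain had a fitted change of 1 or more in size. By class, 1 of 8 tested fibrillar chains, 2 of 5 basement membrane chains and 1 of 15 other chains were called, with medians of 0.13, 0.33 and -0.017. These counts describe the chains that passed the filter on low counts and are not a test of the family.

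**Figure D2:**
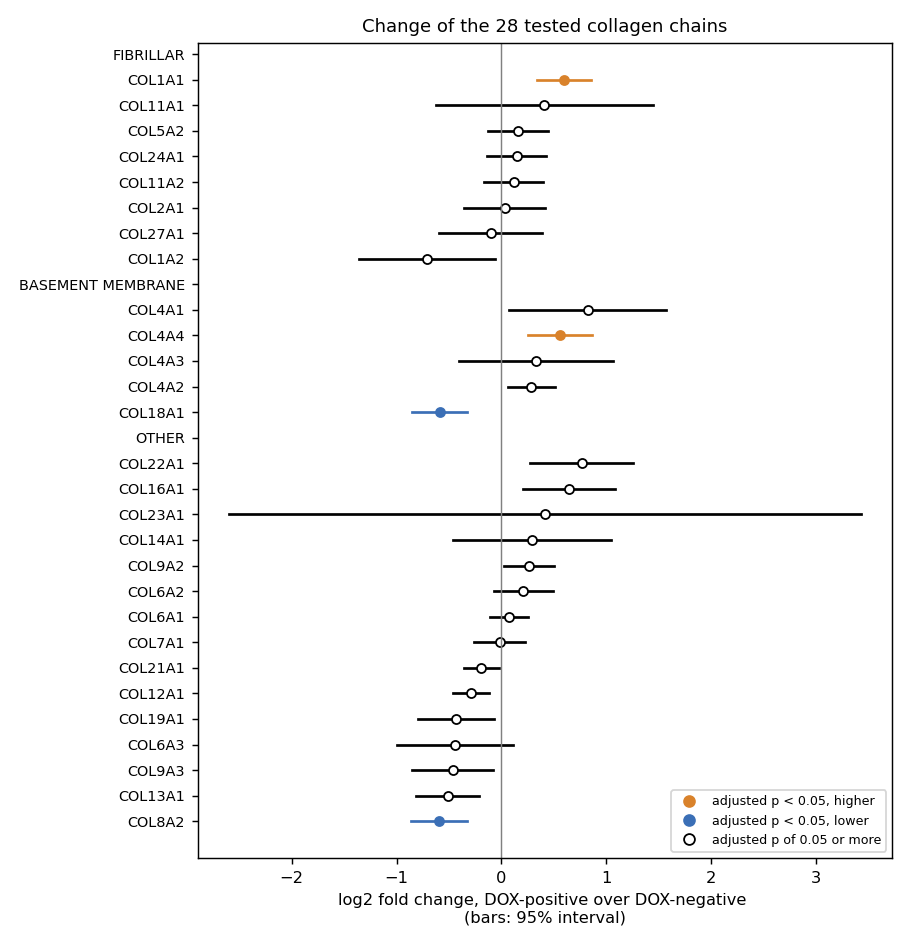
Log2 fold change, DOX-positive over DOX-negative, for the 28 tested collagen chains, with bars for the 95% interval of the edgeR fit. Filled symbols mark the 4 chains with an adjusted p under 0.05 (COL1A1 and COL4A4 above 0, COL18A1 and COL8A2 below 0), and the widest interval is that of COL23A1.

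The fibrillar class was examined first. Type I collagen, the major collagen of connective tissue, is built from COL1A1 and COL1A2 chains, and these had fitted changes of opposite sign. COL1A1 was 9.14, 8.05 and 7.29 normalized CPM in DOX-negative cells and 10.7, 13.4 and 13.03 in DOX-positive cells. Every DOX-positive library exceeded every DOX-negative library. The means were 8.16 ± 0.93 and 12.4 ± 1.45 CPM (SD, n = 3). COL1A1 was thus 0.60 higher on the log2 scale (SE 0.12, adjusted p = 0.0187), or 1.51-fold. COL1A1 lies at chr17:50184101-50201631 on the minus strand of GRCh38.p14, and its counts are totals for the gene symbol. Without DOX-negative replicate 2 or 3 the COL1A1 change was 0.59 or 0.52 and no longer passed (adjusted p = 0.083 and 0.12, against 0.00038 to 0.63 across 17 alternatives).

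COL1A2, the partner chain at chr7:94394895-94431227, was 14.6, 21.5 and 18.3 CPM without DOX and 13.9, 12.6 and 6.81 CPM with DOX. The groups did not overlap, but DOX-positive replicate 3 was far below the other two. The change of -0.71 (SE 0.27, adjusted p = 0.20) was not called. Within each library the ratio of COL1A1 to COL1A2 can be formed without any scaling between libraries. The log2 ratio of TPM was -0.81, -1.55 and -1.47 in DOX-negative cells and -0.51, -0.045 and 0.80 in DOX-positive cells. COL1A2 was thus the more abundant chain in every DOX-negative library, and COL1A1 only in DOX-positive replicate 3. The mean log2 ratio was 1.36 higher with DOX, or 2.56-fold (exact two-sided permutation p = 0.10, adjusted p = 0.15 over 3 pairs of partner chains). With 3 libraries per group the test cannot give a p below 0.10. The difference was between 0.997 and 1.65 when 1 library was left out.

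**Figure D3:**
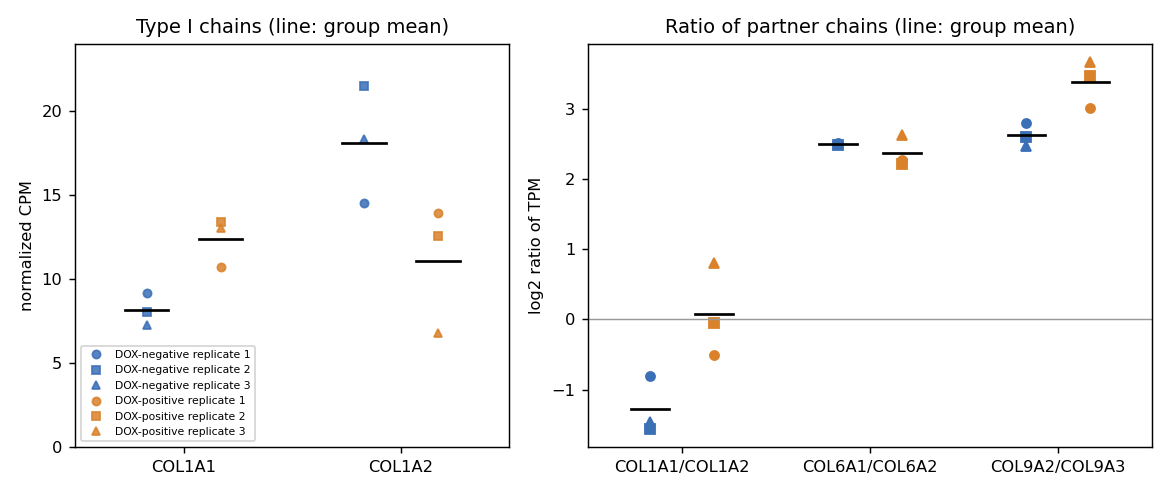
Left, normalized CPM of the type I chains COL1A1 and COL1A2 in each library, with lines for group means. Right, the log2 ratio of TPM for the 3 pairs of partner chains that could be compared, where the DOX-positive libraries (orange) lie above the DOX-negative libraries (blue) for COL1A1/COL1A2 and COL9A2/COL9A3 and overlap them for COL6A1/COL6A2.

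The other fibrillar chains were low. COL2A1, the cartilage collagen, was 3.88, 4.78 and 4.54 CPM without DOX and 4.88, 5.42 and 3.21 CPM with DOX, with overlapping groups and a change of 0.029 (SE 0.18, 95% interval -0.36 to 0.41). COL5A2, which joins type I fibrils and sets their width, was 2.94, 2.76 and 2.60 CPM without DOX and 2.87, 3.35 and 3.09 CPM with DOX (change 0.16, adjusted p = 0.53). COL24A1 was 4.10, 3.28 and 4.07 CPM without DOX and 4.35, 3.95 and 4.35 CPM with DOX (change 0.15, adjusted p = 0.56). None of these 3 chains differed beyond the spread of their libraries. COL11A1, COL11A2 and COL27A1 were also tested and not called, with changes of 0.41, 0.12 and -0.10. The TPM of COL11A2 corresponds to a gene length 8.76 times its annotated exon length in GENCODE release 29, so its level of 0.041 TPM is low by about that factor relative to other chains. COL3A1, the partner of type I in most fibroblast matrix, had 0 counts in all 6 libraries, which allows up to 3 counts in each. COL5A1 and COL5A3 had 1 and 2 counts over the 6 libraries, so COL5A2 was found almost without either of its partner chains.

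Next, the basement membrane collagens were compared. COL18A1 encodes the core protein of a heparan sulfate proteoglycan whose C-terminal fragment is endostatin, an inhibitor of angiogenesis. It had the highest mean TPM of the collagens and the highest TPM in 5 of the 6 libraries, while in DOX-positive replicate 3 it was 8.15 TPM, below COL6A1 at 9.53 TPM and COL21A1 at 9.18 TPM. COL18A1 was 182.4, 215.0 and 191.3 CPM in DOX-negative cells and 142.5, 145.6 and 103.2 CPM in DOX-positive cells. Each DOX-positive value lay under each DOX-negative value. The means were 196.2 ± 16.9 and 130.4 ± 23.6 CPM (SD, n = 3). The fitted change was -0.59 on the log2 scale (SE 0.12, adjusted p = 0.0193), or 1.51-fold lower. As a share of collagen TPM within a library, COL18A1 was 26.3% ± 1.47 without DOX and 19.2% ± 2.23 with DOX (SD, n = 3). The groups did not overlap in this share, which comes from the same reads as the CPM. COL18A1 lies at chr21:45405165-45513720 on the plus strand of GRCh38.p14. Its 3′ part shares 11204 bases with SLC19A1, a folate transporter gene on the opposite strand. SLC19A1 had 1277 to 2534 counts and a change of 0.31 (SE 0.098, adjusted p = 0.088), and the strand setting of the counting was not given in the sources used here. Without DOX-negative replicate 2, DOX-negative replicate 3 or DOX-positive replicate 2, the COL18A1 change was -0.52, -0.61 or -0.67 and no longer passed (adjusted p = 0.088, 0.094 and 0.056, against 9.6e-05 to 0.99991 across 18 alternatives). COL15A1, the related chain, had 7, 6 and 7 counts without DOX and 19, 8 and 16 with DOX and was too low to be tested.

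The 6 type IV chains lie in 3 pairs of genes, each arranged head to head, so that 1 stretch of DNA separates the starts of both genes and serves as their shared promoter region. The stretches between the annotated gene ends (RefSeq, GRCh38.p14) are shown beside the levels of the chains that start on either side of them. Each is written 5′ to 3′ on the plus strand, with capitals for matches, on either strand, to a GC box (GGGCGG), to the letters that name the CCAAT box, or to a TATA box (TATAAA). They are the 126 bases at chr13:110307158-110307283 between COL4A1 (minus strand) and COL4A2 (plus strand), the 135 bases at chr2:227164489-227164623 between COL4A4 (minus) and COL4A3 (plus), and 250 of the 379 bases between COL4A6 (minus) and COL4A5 (plus), at chrX:108439588-108439837, next to COL4A5.
COL4A1-COL4A2: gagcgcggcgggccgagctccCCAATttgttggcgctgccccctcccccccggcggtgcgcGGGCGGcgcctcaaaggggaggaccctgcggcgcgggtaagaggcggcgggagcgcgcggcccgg
COL4A4-COL4A3: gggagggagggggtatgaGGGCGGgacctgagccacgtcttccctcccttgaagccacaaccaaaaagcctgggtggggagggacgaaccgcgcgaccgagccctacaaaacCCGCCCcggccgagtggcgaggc
COL4A6-COL4A5: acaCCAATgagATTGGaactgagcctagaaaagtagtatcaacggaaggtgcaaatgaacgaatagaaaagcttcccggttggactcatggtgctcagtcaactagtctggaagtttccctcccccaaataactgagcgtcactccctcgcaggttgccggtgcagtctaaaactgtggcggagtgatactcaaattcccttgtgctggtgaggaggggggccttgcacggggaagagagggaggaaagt
The COL4A1-COL4A2 stretch holds 1 GC box and 1 CCAAT box, the COL4A4-COL4A3 stretch 2 GC boxes, and the COL4A6-COL4A5 stretch 2 CCAAT boxes, with no TATA box in any. Of the 34796 promoter windows of 300 bases in the RefSeq table, 44.9% held a GC box, 34.6% a CCAAT box and 11.6% a TATA box. The windows at COL4A2, COL4A3 and COL4A5 held 45, 24 and 8 CpG dinucleotides, where the median window had 14. These matches describe letters and not occupied sites.

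Within the COL4A1-COL4A2 pair, COL4A2 was abundant and COL4A1 low. Their protein products form a common trimer, the main type IV collagen of most tissues. COL4A2 had 2867 to 6430 counts per library and COL4A1 had 7 to 36. The ratio of COL4A2 to COL4A1 in TPM was 416, 343 and 474 in DOX-negative cells and 323, 327 and 207 in DOX-positive cells. COL4A2 was 78.7, 71.9 and 60.2 CPM without DOX and 77.4, 92.3 and 87.2 CPM with DOX. DOX-positive replicate 1 was below DOX-negative replicate 1, so the groups overlapped, and the change of 0.28 (SE 0.10, 95% interval 0.061 to 0.51) had an adjusted p of 0.14. COL4A1 was 0.219, 0.242 and 0.147 CPM without DOX and 0.278, 0.327 and 0.488 CPM with DOX. These groups did not overlap, but the change of 0.82 (SE 0.35, adjusted p = 0.20) was not called at this low count. COL4A2-AS1, an antisense RNA within COL4A2, had 16 to 36 counts per library.

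COL4A4, which with COL4A3 and COL4A5 forms the type IV trimer of the kidney and lung, was the other called chain of this class. It was 2.28, 1.97 and 1.95 CPM without DOX and 2.98, 3.35 and 2.88 CPM with DOX, with no overlap. The means were 2.07 ± 0.19 and 3.07 ± 0.25 CPM (SD, n = 3), and the fitted change was 0.56 (SE 0.14, adjusted p = 0.0424), or 1.47-fold. This call was the closest to the threshold. It was lost in 10 of 17 alternatives, including without each of the 6 libraries in turn, where the change was between 0.50 and 0.64 and the adjusted p between 0.056 and 0.18 (0.030 to 0.99995 across all 17). COL4A4 lies at chr2:226967360-227164488 and shares 31851 bases with RHBDD1 on the opposite strand, which had 1131 to 1894 counts against 93 to 225 for COL4A4 and a change of 0.019 (adjusted p = 0.94). COL4A3, its head-to-head neighbor, was 0.250, 0.307 and 0.231 CPM without DOX and 0.225, 0.455 and 0.339 CPM with DOX (change 0.33, SE 0.34, adjusted p = 0.63), and its groups overlapped. COL4A5 had 1 count and COL4A6 had 0 counts over all libraries. Since 4 of the 4 tested type IV chains had a fitted change above 0 and COL18A1 was below 0, basement membrane chains as a class had no single direction.

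**Figure D4:**
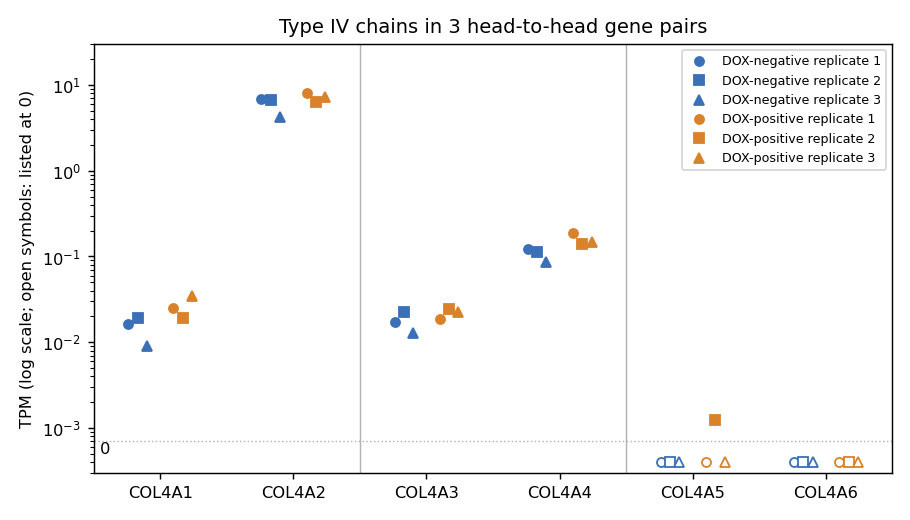
TPM of the 6 type IV chains in each library on a log scale, set out in their 3 head-to-head gene pairs, with open symbols below the dotted line for values listed at 0. COL4A2 lies more than 200 times above COL4A1 in every library, COL4A4 lies above COL4A3, and COL4A5 and COL4A6 are at 0 apart from 1 library of COL4A5.

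Among the remaining collagens, COL8A2 was the 1 called chain. It encodes a short chain of the network in the membrane beneath the corneal endothelium. COL8A2 was 11.05, 12.8 and 11.2 CPM in DOX-negative cells and 8.82, 7.93 and 6.54 CPM in DOX-positive cells. The groups did not overlap, and the means were 11.7 ± 0.99 and 7.76 ± 1.15 CPM (SD, n = 3). The fitted change was -0.59 on the log2 scale (SE 0.12, adjusted p = 0.0205), or 1.51-fold lower. The gene lies at chr1:36095239-36125222 on the minus strand. Without DOX-negative replicate 2 or 3 the COL8A2 change was -0.52 or -0.63 and no longer passed (adjusted p = 0.11 and 0.090, against 0.00043 to 0.99991 across 18 alternatives). Its partner chain COL8A1 had 3 counts over all libraries.

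Type VI collagen, which forms beaded filaments near cell surfaces, was detected mainly as COL6A1. COL6A1 was 76.2, 75.6 and 64.0 CPM without DOX and 73.8, 79.0 and 73.7 CPM with DOX, with a change of 0.069 (SE 0.084, 95% interval -0.11 to 0.25). COL6A2 was 13.7, 14.0 and 11.6 CPM without DOX and 15.7, 17.5 and 12.3 CPM with DOX (change 0.21, adjusted p = 0.39). Both sets of libraries overlapped. The log2 ratio of COL6A1 to COL6A2 in TPM was 2.52, 2.48 and 2.50 without DOX and 2.27, 2.22 and 2.63 with DOX, a difference of -0.13 (exact two-sided permutation p = 0.40, adjusted p = 0.40). COL6A3, the third chain of the common type VI molecule, had only 27 to 74 counts per library and a mean of 0.045 TPM (change -0.44, adjusted p = 0.35). COL6A5, which can take its place, had 4, 3 and 3 counts without DOX and 8, 12 and 21 with DOX and was below the filter on low counts. COL7A1, the collagen of the fibrils that anchor epithelium to the dermis, was 36.3, 28.9 and 35.9 CPM without DOX and 34.4, 36.6 and 28.9 CPM with DOX, with a change of -0.017 (SE 0.11, 95% interval -0.26 to 0.23).

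Of the 24 chains outside the fibrillar and basement membrane classes, 10 were FACITs, and 8 of these were tested. The main edgeR fit and limma-voom called 0 of these 8, beside 4.87% and 3.97% of all genes tested. DESeq2 called 1 (COL12A1, lower), beside 8.46% of all genes. With upper-quartile scaling edgeR called COL12A1, lower, beside 4.78% of all genes, and with a replicate block COL16A1, higher, beside 5.86%. In the main fit 7 of the 8 had an unadjusted p under 0.05, beside 21.1% of all genes tested. The groups did not overlap for these 7, with 3 chains above and 4 below their DOX-negative levels, beside 28.1% of all genes tested (14.8% above and 13.3% below). COL21A1, the most abundant FACIT, was 90.1, 99.0 and 91.8 CPM without DOX and 88.0, 80.7 and 77.5 CPM with DOX, a change of -0.19 (SE 0.077, adjusted p = 0.18). COL12A1, which binds type I fibrils in tissues under tension, was 67.4, 74.7 and 64.8 CPM without DOX and 58.0, 53.2 and 57.8 CPM with DOX, a change of -0.29 (SE 0.080, adjusted p = 0.058). Both thus lay lower in all DOX-positive libraries without passing the threshold. COL16A1 and COL22A1 had larger fitted changes at lower levels, 0.64 (SE 0.20, adjusted p = 0.087) and 0.76 (SE 0.23, adjusted p = 0.073). COL19A1 had a change of -0.43 (adjusted p = 0.16), and COL14A1, the FACIT whose groups overlapped, had 0.29 (adjusted p = 0.69).

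Type IX collagen, the FACIT of cartilage, is normally a trimer of COL9A1, COL9A2 and COL9A3. COL9A1 had 11 counts over all libraries. COL9A2 was 15.1, 15.6 and 11.9 CPM without DOX and 16.0, 17.8 and 17.5 CPM with DOX, a change of 0.26 (SE 0.11, adjusted p = 0.19). COL9A3 was 1.89, 2.23 and 1.87 CPM without DOX and 1.73, 1.40 and 1.21 CPM with DOX, a change of -0.46 (SE 0.18, adjusted p = 0.15). Neither chain was called, although for each the groups did not overlap. The log2 ratio of COL9A2 to COL9A3 in TPM was 2.80, 2.60 and 2.47 without DOX and 3.00, 3.46 and 3.66 with DOX. This ratio was higher in every DOX-positive library, by 0.75 on average, or 1.68-fold (exact two-sided permutation p = 0.10, adjusted p = 0.15). The last 155 bases of COL9A3 are shared with TCFL5 on the opposite strand, which had 1168 to 1611 counts against 77 to 138 for COL9A3.

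Of the transmembrane collagens, COL13A1, found at cell adhesions, was 7.82, 8.36 and 8.17 CPM without DOX and 6.68, 5.86 and 4.52 CPM with DOX. The groups did not overlap, and the change of -0.51 (SE 0.14, adjusted p = 0.052) was just outside the threshold. COL23A1 had 14, 53 and 27 counts without DOX and 101, 47 and 0 counts with DOX. The change of 0.42 (SE 1.17) gave no direction. COL25A1 had 2 counts over all libraries. The chains left untested were COL3A1, COL5A1 and COL5A3 among the fibrillar chains, COL4A5, COL4A6 and COL15A1 among the basement membrane chains, and COL6A5, COL6A6, COL8A1, COL9A1, COL10A1, COL20A1, COL25A1, COL26A1 and COL28A1 among the others. These 15 chains had between 0 and 63 counts each over the 6 libraries, below the filter on low counts. With a looser filter 7 of them could be tested and 0 were called by edgeR, with 1 (COL6A5) at an unadjusted p under 0.05. COL6A5 was called higher in 1 of the 6 alternatives that tested it, without DOX-positive replicate 1 (change 2.10, adjusted p = 0.032, against 0.032 to 0.99992 across the 6).

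Finally, genes that act on collagen were compared, using a list of 59 genes grouped by step. Of these, 52 were tested and 4 were called (7.69%), beside 4.87% of all genes. Prolyl and lysyl hydroxylases and their partners, which modify the chains before they fold, gave 0 of 15 calls with edgeR, DESeq2 and limma-voom. These tools called 4.87%, 8.46% and 3.97% of all genes. In the main fit 3 of the 15 had an unadjusted p under 0.05, beside 21.1% of all genes tested. P4HB, the shared subunit of the prolyl 4-hydroxylases, was 475.4, 494.0 and 461.1 CPM without DOX and 510.5, 530.8 and 482.6 CPM with DOX (change 0.091, adjusted p = 0.51). PPIB, a prolyl isomerase, had a fitted change of -0.078 (adjusted p = 0.61). P3H2, a prolyl 3-hydroxylase, had the highest fitted change of the machinery genes, at 1.27 (SE 0.38, adjusted p = 0.078), on 66 counts over the 6 libraries. It was 0.094, 0.081 and 0.126 CPM without DOX and 0.238, 0.218 and 0.258 CPM with DOX, so the groups did not overlap. P4HA1 and PLOD2 varied more between libraries of 1 group than between groups, with P4HA1 at 28.2, 46.8 and 42.7 CPM without DOX and 65.6, 26.7 and 15.3 CPM with DOX. SERPINH1, the collagen-specific chaperone HSP47, was 94.0, 91.5 and 92.8 CPM without DOX and 87.3, 102.4 and 92.8 CPM with DOX, a change of 0.021 (SE 0.077, 95% interval -0.15 to 0.19). HSPA5, the general chaperone BiP, had a fitted change of -0.067 (adjusted p = 0.68).

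MIA2, which takes part in exporting bulky cargo such as procollagen from the endoplasmic reticulum, was 60.9, 55.0 and 55.1 CPM without DOX and 78.1, 69.4 and 98.8 CPM with DOX. It was higher in every DOX-positive library, by 0.53 (SE 0.11, adjusted p = 0.0241). ADAMTS14, a proteinase that removes the N-terminal propeptide of fibrillar collagens, was 11.3, 12.6 and 14.7 CPM without DOX and 8.81, 9.001 and 6.20 CPM with DOX. It was lower in every DOX-positive library, with a change of -0.69 (SE 0.15, adjusted p = 0.0231). TLL2, a relative of the C-terminal propeptide proteinase BMP1, was 24.3, 30.7 and 30.2 CPM without DOX and 19.0, 17.8 and 8.83 CPM with DOX (change -0.90, SE 0.28, adjusted p = 0.13). The groups did not overlap, and TLL2 was called lower in 4 of 18 alternatives, which were limma-voom, no robust estimation, log2(TPM + 0.1) and leaving out DOX-positive replicate 3 (adjusted p from 0.015 to 0.77 across the 18). PCOLCE, which enhances propeptide cleavage, had a fitted change of 0.14 (adjusted p = 0.50). The 7 cross-linking enzymes gave 0 calls with edgeR, DESeq2 and limma-voom, beside 4.87%, 8.46% and 3.97% of all genes. In the main fit 1 of the 7 had an unadjusted p under 0.05, beside 21.1% of all genes tested. LOXL1 and LOXL2, which are lysyl oxidases, had fitted changes of 0.10 and -0.20 (adjusted p = 0.61 and 0.82).

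Among receptors, ITGA2, the α2 subunit of a collagen-binding integrin, gave the largest change of the called machinery genes. It was 16.3, 13.8 and 14.1 CPM in DOX-negative cells and 26.4, 28.2 and 42.8 CPM in DOX-positive cells, with no overlap. The change was 1.14 (SE 0.17, adjusted p = 0.0065), or 2.21-fold. Its partner ITGB1 was 385.2, 406.7 and 376.9 CPM without DOX and 412.1, 337.7 and 403.3 CPM with DOX (change -0.020, 95% interval -0.21 to 0.17). DDR1, a collagen-binding receptor tyrosine kinase of epithelial cells, had a fitted change of 0.21 (SE 0.078, adjusted p = 0.15), and DDR2, its mesenchymal relative, one of -0.75 (SE 0.21, adjusted p = 0.058). DESeq2 called DDR2 lower, as did edgeR with a replicate block. DESeq2 also called the integrin subunit ITGA1 higher, where the edgeR change was 0.54 (SE 0.16, adjusted p = 0.078). Of the proteins that bind collagen in the matrix, LUM, the proteoglycan lumican, was 1.38, 0.986 and 1.24 CPM without DOX and 2.08, 1.87 and 3.51 CPM with DOX, a change of 1.06 (SE 0.24, adjusted p = 0.0297). NID1, which links type IV collagen to laminin, had a fitted change of 0.26 (adjusted p = 0.12) and AGRN, a basement membrane proteoglycan, one of -0.24 (adjusted p = 0.13). AGRN was called lower in 1 of 18 alternatives, without DOX-positive replicate 2 (change -0.33, adjusted p = 0.023). Without DOX-negative replicate 3 the changes of ITGA2, LUM, MIA2 and ADAMTS14 were 1.11, 1.08, 0.50 and -0.59 and none was called. Without DOX-negative replicate 2 ITGA2 was called, at 1.10, and LUM, MIA2 and ADAMTS14 were not, at 0.93, 0.50 and -0.70. LUM was also not called without DOX-positive replicate 3, at 0.72, or with limma-voom. In all, ITGA2 was called in 16 of 18 alternatives, MIA2 and ADAMTS14 in 13 of 18 each and LUM in 12 of 17.

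**Figure D5:**
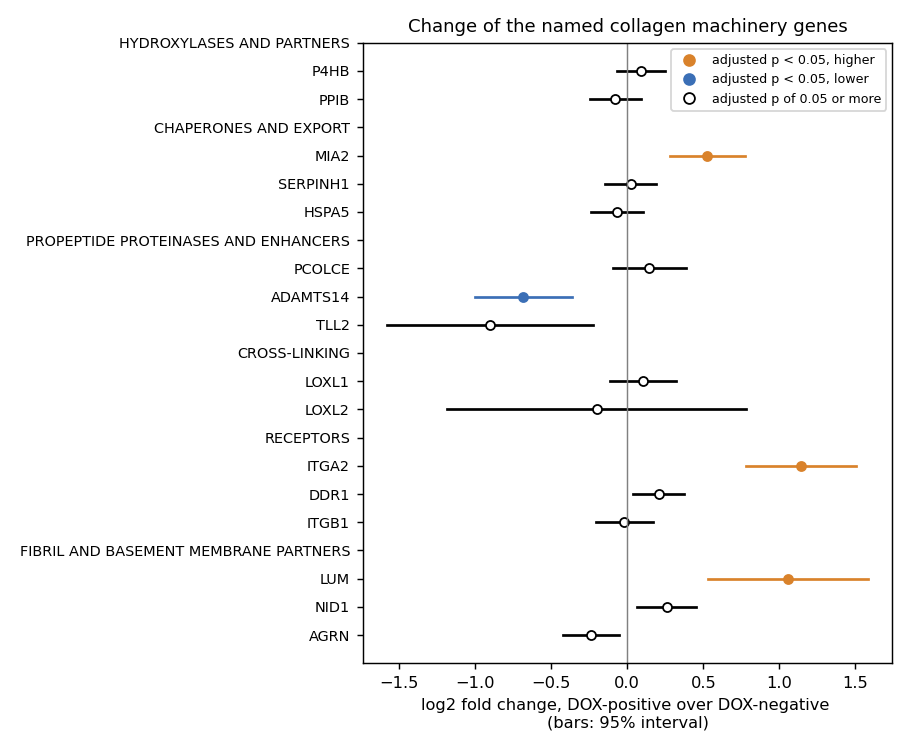
Log2 fold change, DOX-positive over DOX-negative, for 16 genes that modify, export, process, cross-link or bind collagen, ordered by step, with bars for the 95% interval of the edgeR fit. ITGA2, LUM and MIA2 (filled, right of 0) and ADAMTS14 (filled, left of 0) had an adjusted p under 0.05, and the open symbols did not.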

How the data were processed

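RNA-Seq was performed on 3 DOX-negative and 3 DOX-positive H660 libraries, labelled as stranded mRNA, with groups and replicate numbers from the titles. The authors deposited a table of whole-number counts for each gene symbol, aligned with STAR to GRCh38 (hg38) and tested with DESeq2 according to the submitters' processing notes, whose versions, annotation and strand setting were not given in the sources used here. The deposited TPM values correct the counts for gene length and sum to the same total in each library. Counts were given for 28008 symbols and TPM for 25673, with all 43 collagen chains in both.

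The whole count table was fitted in edgeR 4.0.16 under R 4.3.3. Low genes were removed with filterByExpr (minimum count 10), libraries were scaled with TMM (factors 0.967 to 1.03), and a robust quasi-likelihood model compared the groups without covariates. Benjamini-Hochberg adjustment ran over 17026 genes, of which 829 were called at an adjusted p under 0.05 (496 higher, 333 lower). Log2 fold changes are signed as DOX-positive minus DOX-negative, with standard errors and 95% intervals from the F statistic, and the biological coefficient of variation was 9.58%. The library pairs of each group differed by far more than sampling noise (chi-square per degree of freedom 16.8 to 102.8). The triplicate cultures of a group were of 1 cell line and were not stated to be separate experiments, so p values and intervals measure only the spread between these libraries, which may be technical.

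Of 11 pairs of partner chains, the 3 in which both chains had at least 0.1 mean TPM and no 0 were compared by an exact permutation test. Chains named with values were those called, the 5 with the highest mean TPM of each class, any with an absolute log2 change of at least 1, and the partner pairs (18 chains), and further chains were named after their values were seen. From each machinery list the called genes and the 2 most abundant were named, with P3H2, P4HA1, PLOD2, DDR2 and ITGA1 added likewise. The members, lists and tests were chosen with earlier results of these data known. Gene positions, overlaps and promoter windows came from RefSeq (GRCh38.p14), which had a window for 31 of the 43 chains. Exon lengths were from GENCODE 29. Alternatives were RLE, upper-quartile or no scaling factors, a looser (10 counts in total) and a stricter (minimum count 50) filter, DESeq2 1.42.0, limma-voom (limma 3.58.1), estimation without the robust option, limma-trend on log2(TPM + 1) or log2(TPM + 0.1), a replicate block, and leaving out each library. The code was tested on simulated counts.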

Additional observations from a re-analysis of the deposited data

How the results depend on the processing

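The 4 calls among collagen chains depended on the kind of value and on single libraries. Limma-trend on deposited TPM called 0 of the 41, 11 and 20 chains tested in its 3 forms. Thus 0 were called higher, lower, fibrillar, basement membrane or other. Of these chains 5, 3 and 5 had an unadjusted p under 0.05, beside 1248 of 21241, 332 of 11707 and 842 of 15631 genes. Genes called in all were 0 with log2(TPM + 1) unfiltered and 30 with log2(TPM + 1) and a mean TPM of at least 1. With log2(TPM + 0.1) there were 137. In the first, MUC1 was -1.22 (adjusted p = 0.29, the highest of a spread from 8.6e-33), the chain median was 0.0027 and 0 machinery genes were called. In the second, the chain median was -0.15, over the 11 chains left, and 1 machinery gene was called. DESeq2 called 1354 genes and 6 chains, adding COL12A1 and COL13A1 among 4 lower and 3 other chains. Limma-voom called 1 chain higher and 1 of the basement membrane, without COL4A4, beside 3.97% of all genes tested. Upper-quartile scaling (adding COL12A1) and the looser filter (adding COL13A1) called 2 other chains, beside 4.78% and 4.24% of all genes tested. RLE, no scaling factors, the stricter filter and no robust estimation called the same 4 chains. These settings called 4.62%, 3.94%, 5.09% and 4.51% of all genes tested.

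Calls by edgeR with 1 library left out ranged from 58 to 1035 genes, 0 to 5 chains, 0 to 2 chains higher, 0 to 3 lower, 0 to 1 fibrillar, 0 to 1 basement membrane, 0 to 3 other chains and 0 to 5 machinery genes. Without DOX-negative replicate 2 or 3 there were 0 chains called, beside 127 and 58 genes called. In these fits 13 of 30 and 12 of 31 chains had an unadjusted p under 0.05, beside 2640 of 17243 and 2414 of 17207 genes. Without DOX-positive replicate 1 there were 5 chains called, beside 1035 genes, with COL13A1 lower and COL6A5 higher added. Without DOX-positive replicate 2 there were 2 chains called, beside 828 genes. The chain median ranged from 0.075 to 0.17, MUC1 from -1.37 to -1.22, and the log2 ratio differences from 0.997 to 1.65 (COL1A1/COL1A2), -0.25 to -0.047 (COL6A1/COL6A2) and 0.61 to 0.94 (COL9A2/COL9A3). From normalized CPM the ratio differences were 1.36, -0.13 and 0.75.

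The main fit did not pair libraries by replicate number. Deviations from the group means had correlations of -0.54, 0.019 and -0.10 between same-numbered libraries, over 14587 genes. With 3 libraries per group these values cannot decide whether same-numbered libraries shared a culture or preparation. With a replicate block 998 genes were called, 750 of them also without it, and 5 chains, with 1 basement membrane and 3 other chains, since COL4A4 was lost and COL13A1 and COL16A1 were gained.

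Of the 18 named chains, 15 kept their direction throughout. COL2A1 was -0.0080 with limma-voom and ranged from -0.11 to 0.23 with 1 library left out, being negative without DOX-negative replicate 1 (-0.055), DOX-positive replicate 1 (-0.038) or DOX-positive replicate 2 (-0.11). COL6A1 ranged from -0.013, without DOX-negative replicate 3, to 0.11. COL7A1 was 0.0084, 0.0084 and 0.0077 in the TPM fits and ranged from -0.12 to 0.076 with 1 library left out, being 0.042, 0.025 and 0.076 without DOX-negative replicate 1, DOX-negative replicate 3 and DOX-positive replicate 3. The cause of these differences was not tested. Chains under about 10 counts per library were limited by depth.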
